A study of Xenopus tropicalis with 6 samples.

Results

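The DREAM complex genes are here 10 genes that code for the MuvB core and for proteins that bind it in its repressing and its activating form. They were chosen by matching gene symbols to the subunits *lin9*, *lin37*, *lin52*, *lin54*, *rbbp4*, *rbl1*, *rbl2*, *e2f4*, *tfdp1* and *mybl2*. The related genes *e2f5* and *tfdp2* were not among them and are described with the lists around the complex. Each of the 10 matched 1 of the 34229 gene models of the count table, and all 10 were among the 15076 gene models tested, each with a level above 1 cpm (counts-per-million unit) in at least 3 libraries.

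The MuvB core (Lin9, Lin37, Lin52, Lin54 and Rbbp4) sits on the promoters of cell cycle genes. With a pocket protein (p107, coded by *rbl1*, or p130, coded by *rbl2*), E2f4 and its partner Dp1, it forms DREAM, which keeps these genes off in resting cells, and with B-Myb (coded by *mybl2*) it helps to switch on the genes of G2 and mitosis. In human cells the kinase DYRK1A phosphorylates LIN52, a step that lets the core take up p130 and form DREAM.

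RNA was measured in brains of *Xenopus tropicalis* tadpoles at stage 46, in 3 *dyrk1a* CRISPR libraries and 3 control libraries. The CRISPR animals had received Cas9 protein and a guide RNA against *dyrk1a* by bilateral injection of the embryo, and the labels call them a *dyrk1a* knockdown. They are the injected generation, in which cells of 1 animal can carry different edits, and the brains were picked as the most mutagenized by genotyping of the carcasses. The labels call the controls WT (wild type), and the paper states that the animals it used were wild type. The controls were not injected, so the injection itself and the loss of *dyrk1a* cannot be told apart. Each library came from 3 pooled brains, so a p-value here speaks of the variation among pools.

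The libraries held 9603583 to 35071943 counts, with control 3 the shallowest. Across all genes edgeR's quasi-likelihood test with Benjamini-Hochberg adjustment called 1 of 15076 genes at an adjusted p under 0.05 (0.00663%), and that 1 was lower in CRISPR brains. DESeq2 called 295 of the 14490 genes to which it gave an adjusted p (2.04%), with 173 of them higher and 122 lower in CRISPR brains. An edgeR p under 0.05 before adjustment was found for 1949 genes (12.9%). *dyrk1a* itself stood at 16.8, 13.2 and 15.04 cpm in CRISPR libraries 1 to 3 and at 21.4, 10.8 and 14.8 cpm in controls 1 to 3. These overlapping levels of the whole gene do not read the edits. In the reads themselves the study reported a loss of depth beside the guide's target site in every injected library and in no control. The neuron markers summed to between 10381 and 12248 cpm in every library. None of the tested marker models of the brain cell types was at 0 counts, which the filter on low counts makes likely beforehand. The glial marker *gfap* had no tested model under this symbol, and only 4 of 9 microglia and immune symbols had one.

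No gene of the DREAM complex passed the test. The edgeR adjusted p of the 10 ran from 0.338 to 0.976, and DESeq2 called 0 of 10 as well. Over all genes edgeR called 0.00663% and DESeq2 2.04%, so 0 of 10 is near the share of all genes. At an unadjusted p under 0.05 each tool counted 1 of 10, *rbbp4*, against the 12.9% of all genes that edgeR counted at that level. Of the 10 log2 fold changes (CRISPR minus control) 7 were above 0 and 3 below, and their median was 0.10, beside 0.01 over all genes tested. Among all genes 51.9% were above 0. The approximate 95% intervals of all 10 lay inside a 2-fold change in either direction, with limits from 0.589-fold to 1.65-fold. Without CRISPR 2 the interval of *mybl2* reached past 2-fold lower, to -1.05 on the log2 scale, and those of the other 9 stayed inside. For 2 genes, *rbbp4* and *e2f4*, all CRISPR libraries were above all controls, as for 9.13% of all genes, and for 0 all were below, as for 9.72% of all genes. The other 8 overlapped.

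**Figure D1:**
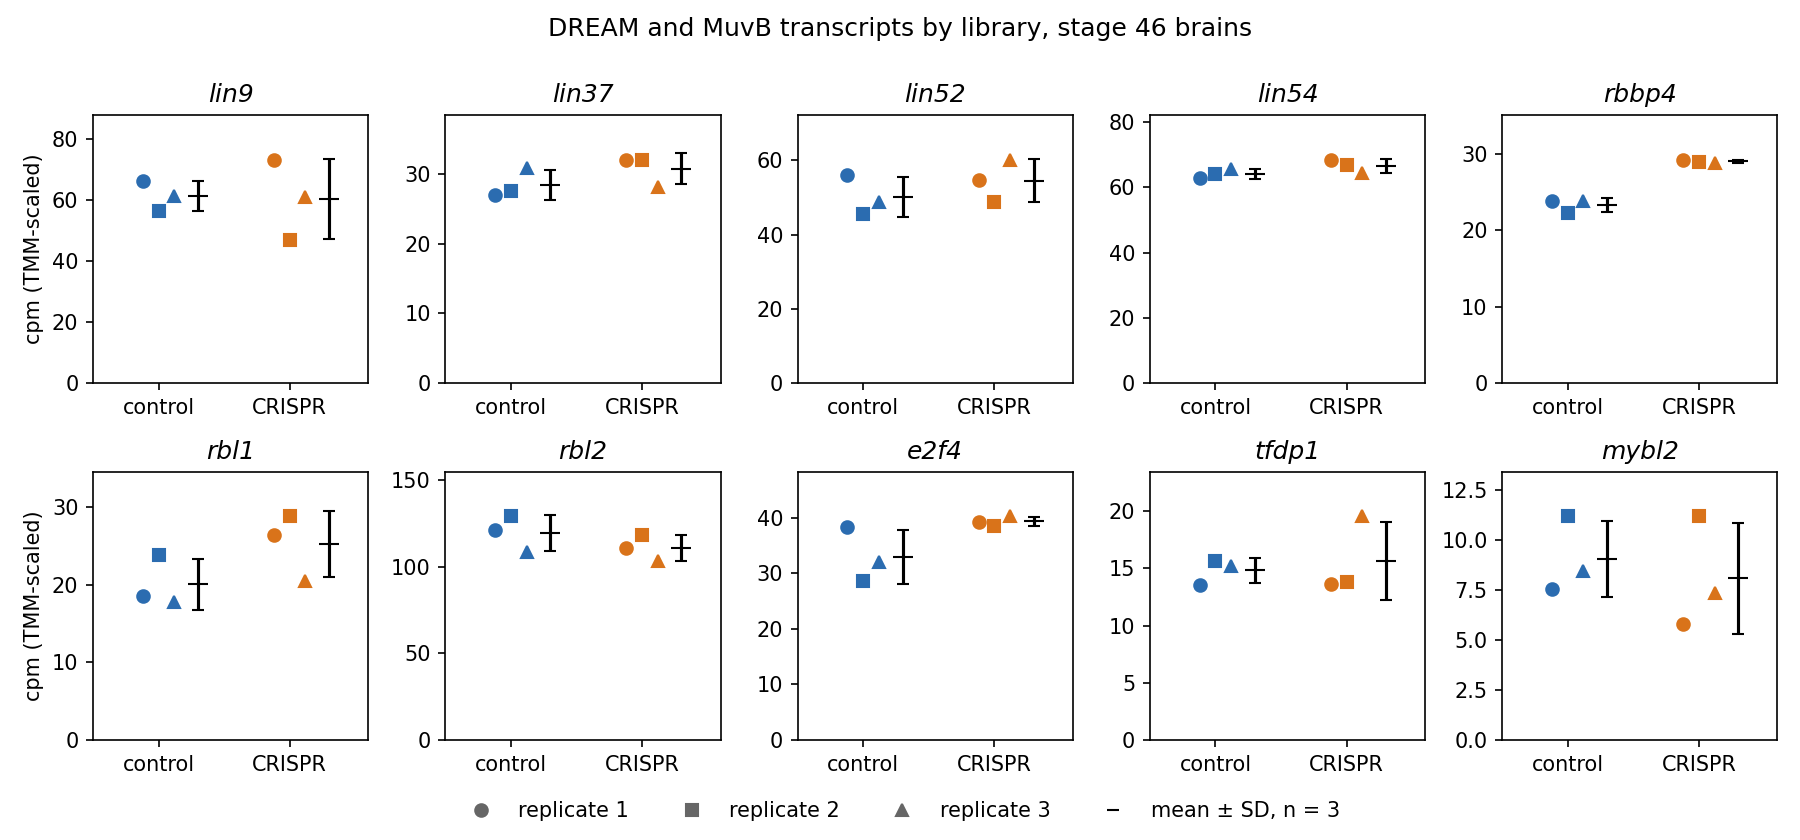
Level of each of the 10 DREAM complex genes in each library, in cpm on a linear axis that differs between panels, with CRISPR and control libraries as points and the group means as lines. The groups are apart only for *rbbp4* (CRISPR 28.9 to 29.3, control 22.2 to 23.9 cpm) and, by a narrow gap, *e2f4* (38.5 to 40.2 against 28.6 to 38.2 cpm).

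Among the MuvB core genes *lin52* codes for the subunit that DYRK1A phosphorylates in human cells. It stood at 54.7, 48.8 and 60.2 cpm in CRISPR libraries 1 to 3 and at 56.1, 45.6 and 48.8 cpm in controls 1 to 3. The groups overlapped, with CRISPR 3 highest and control 2 lowest. The means were 54.6 ± 5.75 and 50.2 ± 5.40 cpm (SD, n = 3 each), a log2 fold change of 0.12 with a standard error of 0.13 and an interval from -0.17 to 0.41 (edgeR adjusted p = 0.738). The value was 0.04 without CRISPR 3, 0.05 without control 2, 0.19 without CRISPR 2 and 0.22 without control 1.

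*lin9* codes for the scaffold of the core. Its levels were 73.1, 47.0 and 61.0 cpm in CRISPR brains and 66.2, 56.2 and 61.3 cpm in control brains. The CRISPR libraries enclosed the controls, with CRISPR 1 the highest and CRISPR 2 the lowest of the 6. The means were 60.4 ± 13.1 and 61.2 ± 5.0 cpm (SD, n = 3 each), and the log2 fold change was -0.02 with a standard error of 0.16 (interval -0.37 to 0.33). Its sign turned with the library left out, from -0.19 without CRISPR 1 to 0.13 without CRISPR 2.

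Lin54 is the subunit that binds DNA, at the cell cycle homology region (CHR) of G2 and mitotic promoters. *lin54* had the narrowest interval of the 10, and its levels were 68.5, 66.7 and 64.2 cpm in CRISPR and 62.8, 63.9 and 65.7 cpm in control libraries. The groups overlapped in CRISPR 3 and control 3. Its log2 fold change was 0.05 with a standard error of 0.10 and an interval from -0.17 to 0.27 (edgeR adjusted p = 0.867).

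Lin37 is needed for repression by the core in mammalian cells but not for its activating form. *lin37* measured 31.9, 32.1 and 28.1 cpm in CRISPR and 26.9, 27.5 and 30.8 cpm in control brains. CRISPR 3 lay among the controls and control 3 above it. Its log2 fold change was 0.12 with a standard error of 0.13 (interval -0.18 to 0.41, edgeR adjusted p = 0.749).

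Rbbp4 is a histone-binding protein that also serves chromatin complexes outside MuvB, among them NuRD, Sin3, PRC2 and the chromatin assembly factor CAF-1. *rbbp4* stood at 29.3, 29.0 and 28.9 cpm in CRISPR libraries 1 to 3 and at 23.9, 22.2 and 23.8 cpm in controls 1 to 3. Every CRISPR library was above every control. The means of 29.0 ± 0.221 and 23.3 ± 0.943 cpm (SD, n = 3 each) gave a log2 fold change of 0.32 with a standard error of 0.13, or 1.25-fold, with an interval from 0.04 to 0.60. The unadjusted edgeR p was 0.0294 and the adjusted p 0.338, while DESeq2 gave an adjusted p of 0.280. The adjusted p was over the threshold in every alternative run (0.280 to 0.627), and the log2 fold change stayed between 0.28 and 0.34 when single libraries were left out. The unadjusted p was above 0.05 without CRISPR 1 (0.0719), CRISPR 2 (0.0554), control 2 (0.0952) or control 3 (0.06).

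Of the pocket protein genes, *rbl1* codes for p107, which is itself under E2F control in mammals. It measured 26.5, 28.8 and 20.5 cpm in CRISPR and 18.6, 23.8 and 17.8 cpm in control libraries. CRISPR 1 and CRISPR 2 were above all controls and CRISPR 3 was below control 2. The means were 25.3 ± 4.28 and 20.1 ± 3.29 cpm (SD, n = 3 each), and the log2 fold change of 0.33, or 1.26-fold, was the largest of the 10 but had a standard error of 0.18 and an interval from -0.07 to 0.72 (edgeR adjusted p = 0.462). It was 0.22 without CRISPR 2, and it was 0.46 without CRISPR 3 and 0.47 without control 2, where the unadjusted p was 0.0256 and 0.0344.

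*rbl2* codes for p130, the pocket protein that is typical of DREAM in resting cells. Its levels were 110.8, 118.4 and 103.5 cpm in CRISPR and 121.3, 129.2 and 108.5 cpm in control brains. The groups overlapped, although each group was highest in its library 2 and lowest in its library 3. Between groups the log2 fold change was -0.11 with a standard error of 0.11 and an interval from -0.35 to 0.12 (edgeR adjusted p = 0.698). It was -0.05 without control 2, -0.06 without CRISPR 3 and -0.18 without control 3.

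The share of one pocket protein gene against the other can be read within a library, where library size drops out. Counts of *rbl1* came to 23.9%, 24.3% and 19.8% of those of *rbl2* in CRISPR libraries 1 to 3 and to 15.3%, 18.5% and 16.4% in controls 1 to 3. All CRISPR libraries were above all controls, with means of 22.7 ± 2.48% and 16.7 ± 1.6% (SD, n = 3 each), a difference of 0.44 on the log2 scale. The exact permutation test (two-sided) gave p = 0.1, the smallest that 3 against 3 libraries allow, so this design cannot pass a threshold of 0.05 by that test. The ratio compares counts of genes of unknown length and is no ratio of molecules.

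**Figure D2:**
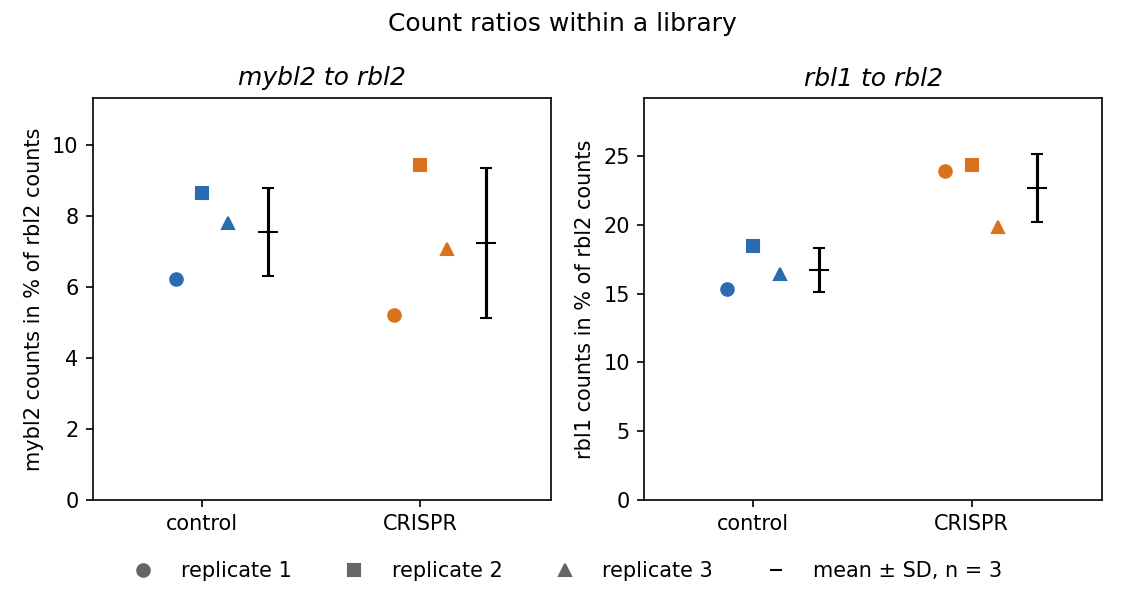
Counts of *rbl1* and of *mybl2* in percent of the counts of *rbl2* in the same library, with 1 point for each of the 3 CRISPR and 3 control libraries. The marker shape gives the replicate number, and black bars give the group mean ± SD (n = 3). The *rbl1* share was 19.8% to 24.3% in CRISPR and 15.3% to 18.5% in control libraries, and the *mybl2* shares of both groups overlapped.

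E2f4 and Dp1 (coded by *tfdp1*) bind E2F sites as a pair. *e2f4* stood at 39.2, 38.5 and 40.2 cpm in CRISPR and at 38.2, 28.6 and 32.1 cpm in control libraries. All CRISPR libraries were above all controls, but control 1 came close to CRISPR 2. The log2 fold change was 0.25, or 1.19-fold, with a standard error of 0.14 and an interval from -0.05 to 0.56 (edgeR adjusted p = 0.469). It was 0.16 without control 2 and 0.39 without control 1, where the unadjusted p was 0.0204.

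*tfdp1* measured 13.6, 13.8 and 19.5 cpm in CRISPR and 13.6, 15.7 and 15.2 cpm in control brains. CRISPR 3 was the highest of the 6, and CRISPR 1 and CRISPR 2 were among the lowest. The log2 fold change of 0.08 (standard error 0.18, interval -0.33 to 0.49) became -0.11 without CRISPR 3.

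B-Myb takes the place of the pocket protein and E2f4 on MuvB as cells enter the cycle, and *mybl2* is itself a DREAM target in mammals. *mybl2* had 165, 256 and 156 counts in CRISPR libraries 1 to 3 and 259, 269 and 80 counts in controls 1 to 3, and 80 counts carry a counting error of 11.2%. The levels were 5.79, 11.2 and 7.33 cpm in CRISPR and 7.54, 11.2 and 8.47 cpm in control brains. The groups overlapped, and library 2 was the highest of both. The log2 fold change was -0.17 with a standard error of 0.27, the widest error of the 10, and an interval from -0.76 to 0.43 (edgeR adjusted p = 0.837). It ran from -0.47 without CRISPR 2 to 0.02 without CRISPR 1, with 0.02 also without control 2. As a share of *rbl2* counts *mybl2* held 7.25 ± 2.11% in CRISPR and 7.56 ± 1.24% in control libraries (SD, n = 3 each), with an exact permutation p of 0.8 (two-sided).

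**Figure D3:**
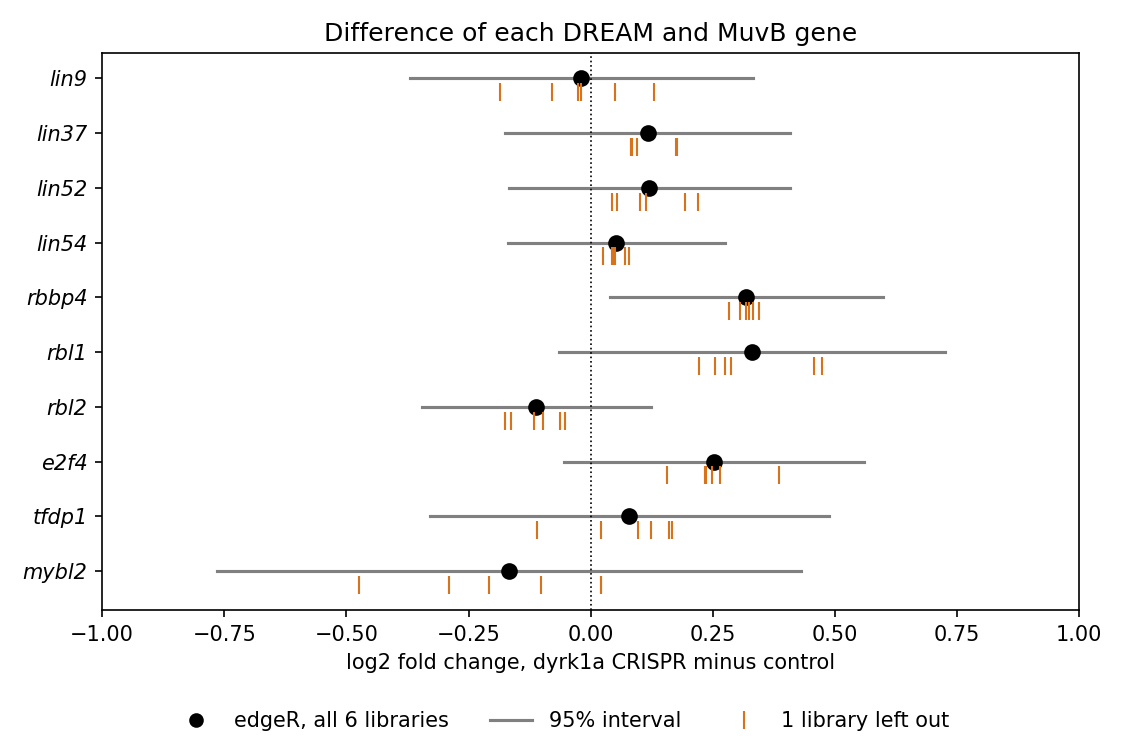
Log2 fold change (CRISPR minus control) of each of the 10 DREAM complex genes from edgeR, with its approximate 95% interval and the values obtained when single libraries were left out. With all 6 libraries the interval is clear of 0 only for *rbbp4* (0.04 to 0.60), and the interval of *mybl2* is the widest (-0.76 to 0.43).

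The patterns over the 6 libraries most like those of *rbbp4* and *rbl1*, the genes of the complex with the smallest p, are given as a description. The points share their libraries, and the highest of many correlations is high by selection. Log2 levels of *rbbp4* went most closely with *prex2* (Pearson r = 0.993), *cmpk1*, a nucleotide kinase (0.990), and *igfbpl1* (0.988). Those of *rbl1* went with *tln1*, which codes for talin (0.984), *plxnb1*, a semaphorin receptor (0.983), and *gdf11.1*, a TGF-beta family ligand (0.981).

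The genes around the complex were read from lists of background knowledge, described by counts and medians. These lists were drawn up with earlier results of these data known. Over all genes tested 51.9% of the log2 fold changes were above 0. Of 9 other E2F, DP and Rb family symbols 6 had a tested model, 4 of them above 0, with a median log2 fold change of 0.40 beside 0.01 over all genes. EdgeR and DESeq2 called 0 of these 6. An unadjusted edgeR p under 0.05, found for 12.9% of all genes, was found for 1 of them, *e2f5*, the closest relative of *e2f4*. CRISPR brains held 16.9 ± 0.721 cpm of it and controls 12.6 ± 2.18 cpm (SD, n = 3 each), a log2 fold change of 0.42 (edgeR adjusted p = 0.343). The repressor *e2f8* stood at 0.89, *tfdp2*, the other DP gene, at 0.46 and the activator *e2f3* at 0.38, each with an unadjusted p above 0.05, and *e2f1*, *e2f2* and *e2f7* had no tested model under these symbols.

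Of the partners of B-Myb and FoxM1, 8 of 9 were tested, 6 were above 0, 2 were below and the median was 0.12. Before adjustment the edgeR p was under 0.05 for 1 that was higher and for 1 that was lower, beside 12.9% of all genes. DESeq2 called 1, beside 2.04% of all genes. This was *plk1*, the mitotic kinase that is recruited by the activating form of MuvB, at 13.7 ± 2.64 against 6.64 ± 0.352 cpm (SD, n = 3 each), with a log2 fold change of 1.05 (DESeq2 adjusted p = 0.000827, edgeR adjusted p = 0.10). The values of *yap1*, a transcriptional coactivator, and *ep300*, a histone acetyltransferase, were 0.42 and 0.14, both with an unadjusted p above 0.05, and the gene model of *yap1* also carries the symbol *ripk3l.1*.

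Of the kinases, cyclins and inhibitors that act on the complex 15 of 20 were tested, with 10 above 0 and a median of 0.05. DESeq2 called 2, beside 2.04% of all genes. These were the mitotic kinase gene *cdk1* (log2 fold change 1.70, edgeR adjusted p = 0.0696) and *ccna2*, which codes for cyclin A2 (1.47, edgeR adjusted p = 0.0931). *cdk2*, the S phase kinase gene, had an unadjusted p of 0.0128 (0.75, edgeR adjusted p = 0.267), and *lats1*, a kinase of the Hippo pathway, stood at 0.46 (edgeR adjusted p = 0.430). *dyrk1a* had a log2 fold change of -0.07 with a standard error of 0.24 and *dyrk1a.2* one of 0.02 with a standard error of 0.14.

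The other subunits of the complexes that hold Rbbp4 were tested for 23 of 24 symbols, with 16 above 0 and a median of 0.05. An unadjusted edgeR p under 0.05, found for 12.9% of all genes, was found for 5 here, all higher in CRISPR brains. These were *ezh2*, the PRC2 methyltransferase (log2 fold change 0.73), *hdac1*, a deacetylase of NuRD and Sin3 (0.26), *chd4*, the NuRD remodeler (0.37), and the CAF-1 genes *chaf1b* (0.97) and *chaf1a* (0.34). DESeq2 called *ezh2* alone, beside 2.04% of all genes. Its level was 59.1 ± 4.76 against 35.5 ± 0.821 cpm (SD, n = 3 each, DESeq2 adjusted p = 3.37e-05, edgeR adjusted p = 0.0914). The paralog *rbbp7* stood at 399.5 ± 32.0 and 386 ± 31.6 cpm, a log2 fold change of 0.05.

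**Figure D4:**
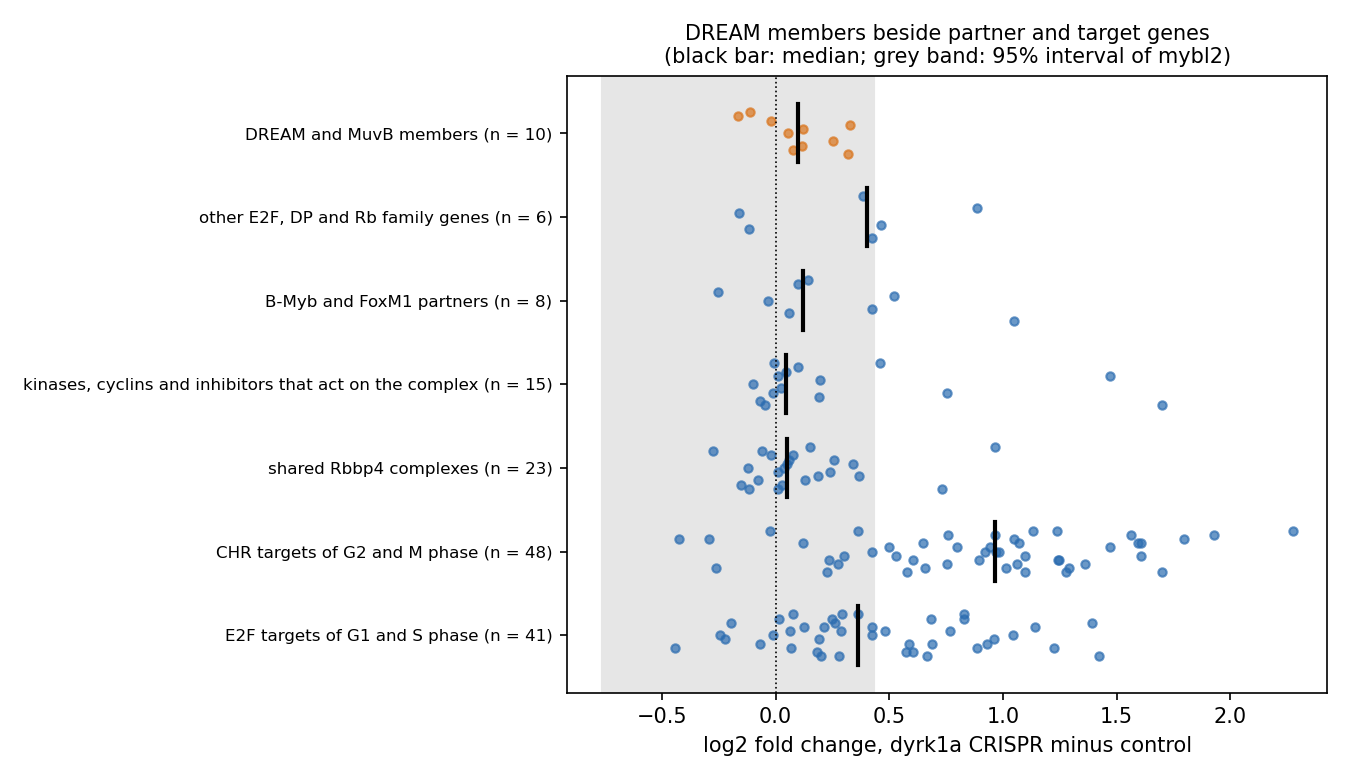
Log2 fold change (CRISPR minus control, from edgeR) of every tested gene model of the DREAM complex and of the lists around it, 1 point for each model, with the median of each list. The 10 DREAM complex genes lie between -0.17 and 0.33 with a median of 0.10, while the medians were 0.97 for the CHR targets and 0.36 for the E2F targets.

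The lists of CHR and E2F targets hold genes known from mammalian cells, and binding was not measured in these brains. From these same libraries the study had already reported *cdk1*, *aurkb*, *ccnb1*, *ccnb2* and *ccna2*, all on the CHR list, as increased. The counts below are thus no independent evidence of that rise. Of 48 tested gene models of CHR targets, genes of G2 and mitosis, 44 were above 0, beside 51.9% of all genes, with a median log2 fold change of 0.97. EdgeR called 0 of the 48. Before adjustment its p was under 0.05 for 33 that were higher and for 1 that was lower, beside 12.9% of all genes. DESeq2 called 22, all higher, beside 2.04% of all genes. All CRISPR libraries were above all controls for 34 and below for 3, beside 9.13% and 9.72% of all genes. The smallest p-values were those of *cdk1* (1.70), *ccnb1.2*, which codes for a cyclin B1 (1.59), *aurkb*, which codes for Aurora B (1.25), and *prc1.2*, a spindle midzone gene (2.28). The 1 lower was *racgap1.2* (-0.42), named here after its value was seen, and *cdk1*, *ccna2* and *plk1* also stand on lists described above.

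Of 41 tested models of E2F targets, genes of G1 and S phase, 35 were above 0, beside 51.9% of all genes, with a median of 0.36. EdgeR called 0 of the 41. Its p before adjustment was under 0.05 for 14 that were higher and 0 that were lower, beside 12.9% of all genes. DESeq2 called 10, all higher, beside 2.04% of all genes. *cdca7* (log2 fold change 1.42) and the replicative helicase genes *mcm4* (1.14), *mcm6.2* (0.93) and *mcm7* (0.83) had the smallest p-values.

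The highest upper limit among the intervals of the 10 DREAM complex genes was 0.72, that of *rbl1*. A log2 fold change above it was found for 31 of the 48 CHR target models, 11 of the 41 E2F target models and 3.17% of all genes tested. These counts use point values and leave out the errors of the target models themselves, so they are no test of a difference. With single libraries left out the limit ran from 0.66 to 0.91. The E2F target models above it fell to 7 of 41 without CRISPR 2 and without control 2, and the fewest CHR target models above it were 24 of 47, without control 2.

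The summed markers of neural progenitors and of neurons did not overlap between the groups. Summed over 20 models of 14 symbols the neural progenitor markers ranged from 5532 to 6189 cpm in CRISPR and from 4280 to 5086 cpm in control libraries. Of the 20 log2 fold changes 19 were above 0, beside 51.9% of all genes, and *msi1*, *hes5.4*, *hes5.2* and *sox3* had the smallest p. EdgeR called 0 of the 20 and DESeq2 called 3, all higher, beside 0.00663% and 2.04% of all genes. The 16 neuron markers summed to 10381 to 10884 cpm in CRISPR and 11882 to 12248 cpm in control libraries. Of their log2 fold changes 13 were below 0 and 3 above, and edgeR and DESeq2 called 0 of the 16. The sum of the 10 DREAM complex genes was 433.6 to 453.5 cpm in CRISPR and 412.4 to 435.1 cpm in control libraries. The groups overlapped narrowly and through control 1 alone, which stood above CRISPR 2 (434.2 cpm) and CRISPR 3. *rbl2*, with means of 110.9 cpm in CRISPR and 119.6 cpm in control brains, weighed most in this sum. In bulk brain, more or fewer cells of a type and more or less RNA per cell cannot be told apart. The part of these marker differences in the values of *rbbp4*, *rbl1* and *e2f4* and in those of the target lists was not tested.

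Markers of other cell types and tissues were summed in the same way. The 8 skeletal muscle markers summed to 20.2 to 33.3 cpm in CRISPR and 65.0 to 217 cpm in control libraries, with 0 of 8 above 0. Only 4 of 9 epidermis symbols had a tested model, and *krt5* and *tp63* were among those without one. Their 5 models had 4 log2 fold changes above 0 and 1 below. Of 9 microglia and immune symbols 4 had a tested model. The sums were 127 to 157 against 79.7 to 106 cpm for 9 meninges and mesenchyme markers, 616 to 876 against 474 to 548 cpm for the 5 epidermis models and 29.3 to 35.0 against 17.9 to 26.0 cpm for 4 microglia and immune markers. Those of 6 erythrocyte markers (305 to 804 against 413 to 579 cpm) and of 5 endothelium markers (65.5 to 70.4 against 66.7 to 78.3 cpm) overlapped between groups. Their part in the values of the DREAM complex genes was not tested.

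Exon usage was read as the share of a gene's exon-bin counts that fell in each bin, a stretch of annotated exon. Of the 155 bins of the 10 genes 153 were tested, and 0 passed an adjusted p under 0.05, as for 0 of 214537 bins in all (0%). An unadjusted p under 0.05 was found for 1 of 153 member bins (0.654%), against 1.07% of all bins, and this bin 5 of *rbl2* held 6 counts in all libraries together. The share did not overlap between groups in 15 of 153 bins (9.80%), against 9.02% of all bins with a share in every library, with 8 higher in CRISPR brains and 7 lower. The members' shares of separated bins and of small p-values were thus near or under those of all bins. The 1.07% of all bins is less than evenly spread p-values would give under 0.05. The test as run was thus conservative, and its lack of calls cannot show that exon usage was unchanged, in these genes or in all. With a different program the study reported differential exon usage between these groups.

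By gene, *lin52* had 3 such bins of its 8 (37.5%, beside 9.02% of all bins), all higher in CRISPR brains. Its bin 5 held 13.3 ± 0.965% of the counts of the gene in CRISPR and 11.5 ± 0.889% in control brains, and its bin 4 held 7.36 ± 0.580% and 6.87 ± 0.104% (SD, n = 3 each), while its bin 7 held only 11 counts. *mybl2* had 3 of its 15 tested bins, with bin 10 higher (10.7 ± 0.325% against 8.15 ± 1.89%) and bins 13 and 15 lower. *tfdp1*, *e2f4*, *rbl1* and *lin9* had 2 each and *rbbp4* had 1, whereas *lin37*, *lin54* and *rbl2* had 0. No separated bin of these genes had a diffSpliceDGE p under 0.05 before adjustment.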

How the data were processed

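The authors aligned the reads of 6 unstranded poly(A) libraries with STAR 2.7.3 to the XenBase *X. tropicalis* genome 9.1 in its gene annotation mode and deposited unnormalized counts for genes and for exon bins. The program that counted reads per gene was not named. Log2 values that the authors also deposited, used as an alternative, equal log2(cpm + 1) of the same counts to within 1e-08. In the exon-level table, counts in no exon (5.02% to 5.62%) and ambiguous counts (0.463% to 0.526%) stayed out of the tests.

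Counts were tested in R 4.3.3 by the quasi-likelihood F test of edgeR 4.0.16 after TMM scaling, with p-values adjusted by Benjamini-Hochberg over 15076 genes (threshold 0.05), with the filter of the study (more than 1 cpm in 3 libraries) and no covariate. DESeq2 1.42.0 and limma 3.58.1 were alternatives. Exon usage was tested with diffSpliceDGE on models with at least 5 counts. The common biological coefficient of variation was 17.6%. Intervals (95%) are approximate.

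The members and lists were chosen with earlier results of these data known. Named are all members, *dyrk1a* and *dyrk1a.2*, up to 4 genes of smallest p per list, the 3 genes most like each of the 2 members of smallest p, and genes behind counts of 5 or fewer. Some genes that this rule names are not reported here. No genome of this build was used, so no coordinates or sequences are given.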

Additional observations from a re-analysis of the deposited data

How the results depend on the processing

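None of the 10 DREAM complex genes passed an adjusted p of 0.05 in the main analysis or in any of 14 alternatives. The count over all genes moved, from 0 higher and 1 lower to 173 and 122 with DESeq2 and to 120 and 60 without the filter on low counts. Leaving out single libraries gave 0 to 5 higher and 0 to 3 lower. The count of the 10 with an unadjusted p under 0.05, which was 1, ran from 0 to 2. The log2 fold change turned sign for *mybl2* (range -0.47 to 0.0219, above 0 without CRISPR 1 and without control 2), *lin9* (-0.19 to 0.13, above 0 without CRISPR 2 and without control 1) and *tfdp1* (-0.11 to 0.17, below 0 without CRISPR 3), and the log2 ratio of *mybl2* to *rbl2* (-0.30 to 0.13) turned without CRISPR 1 and without control 2 (0.016). Over the omissions the median log2 fold change ran from 0.0080 to 0.19 for kinases, cyclins and inhibitors, from 0.0055 to 0.19 for B-Myb and FoxM1 partners, from 0.02 to 0.09 for the complexes that share Rbbp4 and from 0.30 to 0.47 for E2F targets, and the exon bins of the 10 genes at an unadjusted p under 0.05 numbered 1 to 3. The CHR target median was 0.80 with the deposited log2 values. The cause of these shifts was not tested.

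Same-numbered libraries deviated from their group means with correlations of -0.11, 0.20 and -0.04, and the other pairs across groups ran from -0.29 to 0.31. With 3 libraries per group these values cannot decide whether the replicate numbers pair the samples. With the replicate number as a block 2 genes were called higher and 0 of the 10 DREAM complex genes.

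*mybl2* had the lowest counts of the 10, with 80 in the shallowest library, control 3. Its counting error there was 11.2%, beside a biological coefficient of variation of 23.4%, and its log2 fold change without control 3 was -0.21. Changes in protein or phosphorylation, where Dyrk1a acts on the complex, were not measured.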
